A study of Mus musculus with 12 samples.

Results

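Expression of 9 interferon-stimulated genes (Isg15, Ifit1, Ifit2, Ifit3, Irf7, Irf9, Stat2, Oasl2 and Bst2) was followed over a dose series of CHIR99021 in mouse mammary organoids. The genes were taken from the count table by symbol. They are 9 of the 25210 genes listed there, and all 9 passed the filter on low counts that left 15316 genes for testing. Organoids, which are small three-dimensional epithelial cultures, were made from the mammary glands of virgin FVB/N females aged 8 to 11 weeks. They were embedded in growth factor-reduced Matrigel, a basement membrane gel, and kept in minimal medium for 7 days. The medium held CHIR99021 (1, 1.5 or 3 µM) or its solvent, dimethyl sulfoxide (DMSO). This compound blocks GSK3, a kinase that restrains β-catenin, and served to switch on WNT signalling. There were 3 cultures, each from its own animal, and each was split over the 4 treatments, which gave 12 bulk RNA libraries and 3 per group. The sample titles also tag cultures 1, 2 and 3 as med, min and max, which the labels do not explain. No interferon, virus or other immune stimulus is named in the labels.

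Interferons are secreted proteins that cells release when sensors detect foreign or misplaced nucleic acid. They bind receptors on the cell surface, the receptors activate JAK kinases, and the kinases phosphorylate STAT proteins. STAT2 and IRF9 then join a complex that binds a DNA motif called the interferon-stimulated response element (ISRE) in front of antiviral genes. Another motif, the gamma-activated site (GAS), serves the response to interferon gamma. Of the 9 genes, Stat2 and Irf9 encode parts of that complex, and Irf7 encodes a transcription factor that amplifies interferon production. Isg15 encodes a ubiquitin-like protein that is attached to other proteins, and Ifit1, Ifit2 and Ifit3 encode tetratricopeptide repeat proteins that act against viral RNA and translation. Oasl2 belongs to the oligoadenylate synthetase family, and Bst2 encodes tetherin, a membrane protein that holds budding virus particles at the cell surface. In the mammary gland the interferon response is studied in epithelial, stromal and immune cells alike, and none of these genes is specific to one cell type.

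The promoter sequences show how the 9 genes differ in the letters near their start sites. Windows of 300 bases, from 250 before to 50 after a start site, were taken from RefSeq (build GRCm38.p6), and all 9 genes were matched, with 11 windows in all. The ISRE core was searched as GAAA, 2 bases of any kind and GAAA again, and the GAS motif as TTCNNNGAA, each on both strands and with overlapping matches counted. The ISRE core was found in 5 of the 9 genes, namely Isg15, Ifit1, Ifit3, Stat2 and Bst2. It was found in 3.44% of the 32851 mouse promoter windows of that length. The GAS motif was found in Ifit2 and Bst2, and in 8.30% of all windows. The windows of Irf7, Irf9 and Oasl2 held neither motif. The start sites of the Irf9 windows lay 414 and 1008 bases from the 5′ end of the gene in GENCODE M21. Each other gene had a window with its start site within 61 bases of that end. The sequence before the annotated Irf9 end was therefore not searched. A match describes letters and does not show that a factor binds there. The stretches with matches are printed so that the letters can be read beside the values. Among the 3 genes described below that passed the test at 3 µM, Ifit3 held the ISRE core, Ifit2 the GAS motif and Bst2 both. Each runs 5′ to 3′ on the strand of the gene, and capitals mark the motif named (the ISRE core unless GAS is written). An ISRE core on the opposite strand reads TTTC, 2 bases and TTTC.
Isg15, chr4:156200855-156200916, minus strand: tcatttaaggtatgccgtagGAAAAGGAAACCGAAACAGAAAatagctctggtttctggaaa
Ifit1, chr19:34640765-34640833, plus strand: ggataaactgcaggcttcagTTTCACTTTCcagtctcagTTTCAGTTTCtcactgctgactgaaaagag
Ifit3, chr19:34583353-34583436, plus strand: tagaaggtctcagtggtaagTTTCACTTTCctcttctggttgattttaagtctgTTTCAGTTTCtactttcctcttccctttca
Stat2, chr10:128270256-128270305, plus strand: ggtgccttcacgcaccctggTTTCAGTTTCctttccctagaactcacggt
Bst2, chr8:71537567-71537622, minus strand: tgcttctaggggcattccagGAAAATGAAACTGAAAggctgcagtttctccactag
Bst2 (GAS), chr8:71537580-71537628, minus strand: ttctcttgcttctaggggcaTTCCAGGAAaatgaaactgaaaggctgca
Ifit2 (GAS), chr19:34550444-34550481, plus strand: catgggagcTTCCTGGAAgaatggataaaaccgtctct

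The first ISRE match began 78 bases before the start site in Isg15, 104 in Ifit1, 130 in Bst2, 156 in Ifit3 and 222 in Stat2. Isg15 held 3 overlapping matches, Bst2 held 2 overlapping ones, and Ifit1 and Ifit3 held 2 separate ones. The GAS match began 241 bases before the start site in Ifit2 and 136 in Bst2, where it overlapped the first ISRE match.

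Library totals ran from 10.1 M counts (M, mega) in DMSO culture 2 to 24.5 M at 1.5 µM in culture 2. Levels below are CPM, counts per M counts of a library total scaled by TMM (the trimmed mean of M values). The tissue label was checked against epithelial markers: all 10 (Epcam, Cdh1, Krt8, Krt18, Krt19, Krt5, Krt14, Trp63, Elf5 and Esr1) were measured in every group, with a summed level of 4448 to 7669 CPM in DMSO. Markers of other cells were present too. In DMSO the 6 fibroblast markers summed to 1548 to 20187 CPM, the 4 endothelial markers to 217 to 467 CPM and the 10 listed macrophage and dendritic cell markers to 58.4 to 405 CPM. The 7 lymphocyte markers summed to 1.20 to 5.76 CPM, almost all of it Cd4. At 3 µM these sums were 164 to 4484 CPM for fibroblasts, 22.8 to 76.9 CPM for endothelium, 15.4 to 61.8 CPM for macrophages and dendritic cells, and 0 to 0.578 CPM for lymphocytes. The value of 0, in culture 1, allows up to 0.235 CPM, the worth of 3 counts on that scale. At 3 µM against DMSO, 8 of 10 macrophage and dendritic cell markers and 4 of 4 endothelial markers were lower. Of all genes tested, 27.7% were lower there. With a term for culture, 9 of 10 and 4 of 4 of these markers were lower. For fibroblast markers 0 of 6 passed the test, and 5 were lower with a term for culture. Their sum was lower at 3 µM than in DMSO in each culture (164, 923 and 4484 against 1548, 7165 and 20187 CPM in cultures 1, 2 and 3). Summed epithelial markers were 17162 to 33961 CPM at 3 µM. Of these markers Krt5, Krt14 and Trp63 rose, and Krt8, Krt18, Krt19 and Esr1 fell. In a bulk library, fewer cells of a type and less RNA per cell cannot be told apart.

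**Figure D1:**
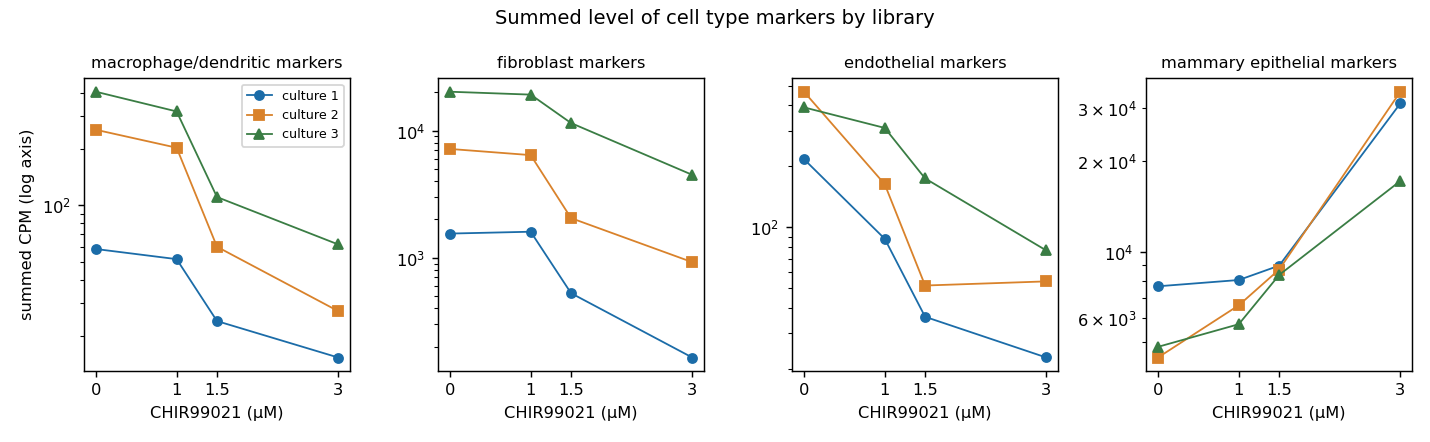
Summed CPM of 4 marker lists (log axis) against CHIR99021 concentration in µM, with 1 line per culture and 1 point per library. Macrophage and dendritic cell markers fell from 58.4 to 405 CPM in DMSO to 15.4 to 61.8 CPM at 3 µM, and culture 3 had the highest fibroblast sum in every group.

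At 3 µM CHIR99021 against DMSO, 2 of the 9 genes were lower (Ifit2 and Ifit3), 1 was higher (Bst2) and 6 did not pass the test. Of all 15316 genes tested, 57.5% were called in this comparison, 29.9% higher and 27.7% lower, so 3 of 9 is not above the background. The median log2 fold change of the 9 genes was -0.29, against -0.03 over all genes tested. Calls are from edgeR's quasi-likelihood test with Benjamini-Hochberg adjustment over all 15316 genes, two-sided, at a threshold of 0.05. At 1 µM none of the 9 was called, by edgeR or DESeq2, with 1 at an unadjusted p under 0.05 (Ifit3), where 0.242% of all genes were called. At 1.5 µM none was called by either tool, with 1 at an unadjusted p under 0.05 (Ifit2), where 27.3% of all genes were called. The 3 comparisons share the DMSO libraries.

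**Figure D2:**
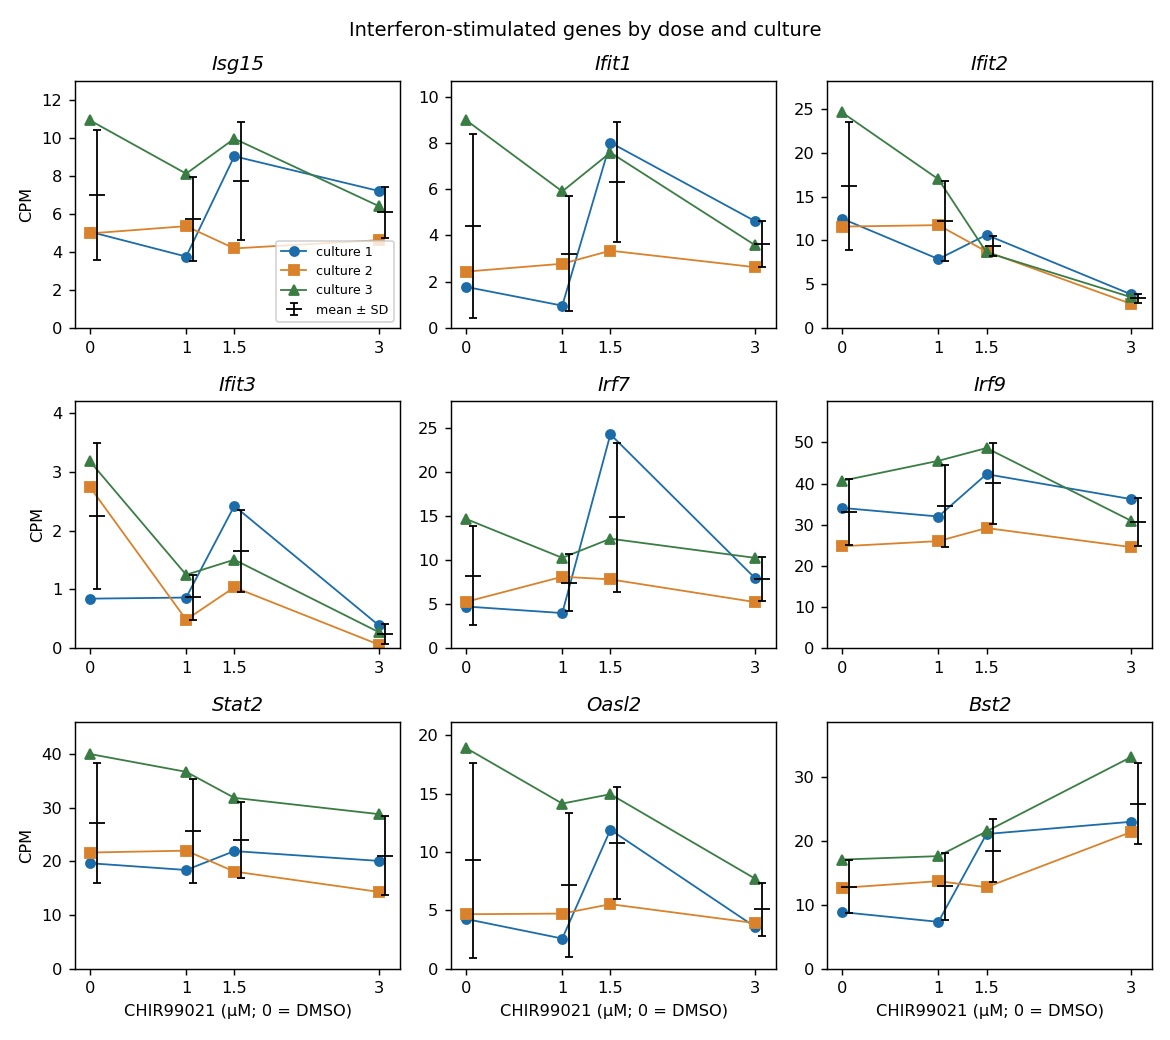
CPM of each of the 9 genes against CHIR99021 concentration in µM (0 is DMSO). Coloured points joined by lines are the 3 cultures, and the black bars beside them give the mean ± SD of 3 libraries. Ifit2 lies at 2.76 to 3.84 CPM at 3 µM in all cultures, Bst2 is highest at 3 µM, and the culture 1 library at 1.5 µM is the highest for Irf7 (24.3 CPM).

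Stat2 and Irf9, the genes of the STAT and IRF partners of the ISRE-binding complex, had the highest mean CPM of the 9 in DMSO and at 1 and 1.5 µM. At 3 µM the Bst2 mean lay between theirs. Stat2 (ENSMUSG00000040033, chr10:128270576-128292849, plus strand) had 19.6, 21.6 and 40.0 CPM in DMSO in cultures 1, 2 and 3. It had 18.4, 22.0 and 36.6 CPM at 1 µM, 21.9, 18.1 and 31.8 CPM at 1.5 µM, and 20.1, 14.3 and 28.8 CPM at 3 µM. Culture 3 was the highest in each group and the groups overlapped. The Stat2 mean was 27.1 ± 11.2 CPM in DMSO and 21.1 ± 7.28 CPM at 3 µM (SD, n = 3), a log2 fold change of -0.36 ± 0.377 (SE) with an adjusted p of 0.426. Over the dose series the Stat2 slope was -0.12 ± 0.113 log2 units per µM (adjusted p = 0.360). With a term for culture that slope passed the test (-0.12, adjusted p = 0.0434), as did 64.5% of all genes.

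Irf9 (ENSMUSG00000002325, chr14:55603571-55610030, plus strand) had 34.1, 24.8 and 40.7 CPM in DMSO in cultures 1, 2 and 3. It had 32.0, 26.0 and 45.5 CPM at 1 µM, 42.3, 29.2 and 48.6 CPM at 1.5 µM, and 36.2, 24.6 and 31.0 CPM at 3 µM. All groups overlapped, and culture 2 was the lowest in each. The Irf9 change at 3 µM was -0.12 ± 0.267 (log2 ± SE, adjusted p = 0.717). Irf9 overlaps Rnf31 on the same strand, so its counts may hold reads of both genes.

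Irf7 (ENSMUSG00000025498, chr7:141262706-141266481, minus strand), the amplifier of interferon production, had 4.75, 5.28 and 14.7 CPM in DMSO in cultures 1, 2 and 3. It had 4.01, 8.14 and 10.3 CPM at 1 µM, 24.3, 7.84 and 12.5 CPM at 1.5 µM, and 8.00, 5.26 and 10.3 CPM at 3 µM. A single library, culture 1 at 1.5 µM, stood above the rest, and the groups overlapped. The Irf7 change was 0.84 ± 0.554 (log2 ± SE, adjusted p = 0.283) at 1.5 µM and -0.08 ± 0.556 (adjusted p = 0.912) at 3 µM. Irf7 overlaps Phrf1 on the opposite strand, and whether the counting used strand is not given in the sources used here.

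Isg15 (ENSMUSG00000035692, chr4:156199424-156200818, minus strand) had 5.07, 4.98 and 10.9 CPM in DMSO in cultures 1, 2 and 3. It had 3.76, 5.36 and 8.12 CPM at 1 µM, 9.04, 4.19 and 9.97 CPM at 1.5 µM, and 7.21, 4.62 and 6.42 CPM at 3 µM. The groups overlapped at every dose, and culture 2 stayed between 4.19 and 5.36 CPM throughout. Its mean was 6.99 ± 3.41 CPM in DMSO and 6.08 ± 1.33 CPM at 3 µM (SD, n = 3), a log2 change of -0.21 ± 0.430 (SE, adjusted p = 0.698). With that error the data do not tell a fall from a rise of this gene.

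The 3 Ifit genes lie close together on chromosome 19. Only Ifit2 and Ifit3 passed the test at 3 µM, while Ifit1 did not, and the differences between the genes were not tested. Ifit2 (ENSMUSG00000045932, chr19:34550694-34576419, plus strand) had 12.5, 11.6 and 24.6 CPM in DMSO in cultures 1, 2 and 3. It had 7.87, 11.7 and 17.0 CPM at 1 µM, 10.6, 8.72 and 8.63 CPM at 1.5 µM, and 3.84, 2.76 and 3.52 CPM at 3 µM. All 3 libraries at 3 µM lay below all 9 others, and the 1.5 µM libraries lay below those of DMSO. Of all genes tested, groups likewise did not overlap, in either direction, for 60.8% at 3 µM against DMSO, 42.8% at 3 against 1.5 µM, 58.8% at 3 against 1 µM and 45.6% at 1.5 µM against DMSO. The Ifit2 mean was 16.2 ± 7.28 CPM with DMSO, 12.2 ± 4.58 with 1 µM CHIR99021, 9.33 ± 1.13 with 1.5 µM and 3.37 ± 0.556 CPM with 3 µM (SD, n = 3). Ifit2 fell by 2.27 ± 0.354 on the log2 scale at 3 µM, or 4.82-fold (adjusted p = 0.000403). The call held with each of the 12 libraries left out in turn, with adjusted p from 0.000358 to 0.00264. Ifit2 was also lower at 3 than at 1.5 µM (log2 -1.47 ± 0.348, adjusted p = 0.0115) and lower at 3 than at 1 µM (-1.85 ± 0.350, adjusted p = 0.00159). The first of these calls was lost without culture 1 (adjusted p = 0.0747) or culture 2 (0.165), and the second without culture 2 (0.0513). Its change at 1.5 µM against DMSO, -0.80 ± 0.334, did not pass the test (adjusted p = 0.101).

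Ifit3 (ENSMUSG00000074896, chr19:34583531-34588731, plus strand) was the least abundant of the 9, with 0.844, 2.74 and 3.18 CPM in DMSO in cultures 1, 2 and 3. It had 0.863, 0.487 and 1.25 CPM at 1 µM, 2.42, 1.04 and 1.51 CPM at 1.5 µM, and 0.392, 0.0642 and 0.276 CPM at 3 µM. The values at 3 µM are 5, 1 and 4 reads, against 19, 27 and 59 reads in DMSO, and they lay below every other library. Ifit3 fell by 3.19 ± 0.708 on the log2 scale at 3 µM (adjusted p = 0.00324). The call held with each library left out in turn, but not without culture 2 (log2 -2.57, adjusted p = 0.0520). At 1 µM the Ifit3 change was -1.37 ± 0.610 (unadjusted p = 0.0485, adjusted p = 0.422). Ifit3 was lower at 3 than at 1.5 µM (-2.75 ± 0.705, adjusted p = 0.0161), a call lost without the culture 1 library at 1.5 µM (adjusted p = 0.0512) or the culture 2 library at 3 µM (0.0572). It was also lost without the whole of culture 1 (0.0693), culture 2 (0.129) or culture 3 (0.0600). At 3 against 1 µM the difference, -1.83 ± 0.713, did not pass with edgeR (adjusted p = 0.0529). It passed with DESeq2 (0.0356), with scaling by library size only (0.0306), and without DMSO culture 1 (0.0311) or culture 2 at 1 µM (0.0464).

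Ifit3 has a near-identical copy, Ifit3b, which the table lists as I830012O16Rik. Their longest GENCODE M21 transcripts agree at 97.8% of 1700 aligned bases, so reads may have been lost or exchanged between them and the value of either copy is uncertain. The sum of the 2 genes was 1.60, 4.06 and 5.44 CPM in DMSO and 0.784, 0.449 and 0.483 CPM at 3 µM. The summed values at 3 µM lay below those in DMSO in all 3 cultures. Ifit3b itself fell by 2.12 on the log2 scale (adjusted p = 0.0128), a call lost without DMSO culture 3 (adjusted p = 0.0547).

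Ifit1 (ENSMUSG00000034459, chr19:34640871-34650009, plus strand) had 1.78, 2.44 and 8.99 CPM in DMSO in cultures 1, 2 and 3. It had 0.965, 2.78 and 5.91 CPM at 1 µM, 8.02, 3.34 and 7.59 CPM at 1.5 µM, and 4.63, 2.63 and 3.59 CPM at 3 µM. The direction at 3 µM was not shared: on the log2 scale culture 1 was at 1.33 above its DMSO library, culture 2 at 0.11, and culture 3 at -1.30. The group change was -0.29 ± 0.721 (log2 ± SE, adjusted p = 0.743).

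Oasl2 (ENSMUSG00000029561, chr5:114896936-114912234, plus strand) had 4.27, 4.67 and 18.9 CPM in DMSO in cultures 1, 2 and 3. It had 2.59, 4.73 and 14.1 CPM at 1 µM, 11.9, 5.53 and 14.9 CPM at 1.5 µM, and 3.61, 3.91 and 7.73 CPM at 3 µM. Culture 3 was the highest in every group, and the groups overlapped. Oasl2 changed by -0.87 ± 0.746 at 3 µM against DMSO (log2 ± SE, adjusted p = 0.336).

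Bst2 (ENSMUSG00000046718, chr8:71534264-71537437, minus strand) was the only one of the 9 called higher. It had 8.89, 12.7 and 17.1 CPM in DMSO in cultures 1, 2 and 3. It had 7.36, 13.7 and 17.7 CPM at 1 µM, 21.1, 12.8 and 21.6 CPM at 1.5 µM, and 23.1, 21.4 and 33.2 CPM at 3 µM. Every library at 3 µM lay above every DMSO and 1 µM library, and the range at 1.5 µM overlapped that of every other group. The Bst2 mean was 12.9 ± 4.12 CPM in DMSO and 25.9 ± 6.37 CPM at 3 µM (SD, n = 3), and it rose by 1.01 ± 0.357 on the log2 scale (adjusted p = 0.0336). It was higher in 3 of 3 cultures, by 1.36, 0.75 and 0.95 log2 units. The call was lost without DMSO culture 1 (adjusted p = 0.106), DMSO culture 2 (0.0817), culture 1 at 3 µM (0.0533) or culture 3 at 3 µM (0.110), and with scaling by library size only (log2 0.82, adjusted p = 0.0735). A term for culture gave an adjusted p of 0.00700. Bst2 was also higher at 3 than at 1 µM (log2 1.00 ± 0.356, adjusted p = 0.0370). That call was lost with scaling by library size only (log2 0.74, adjusted p = 0.103), with the 2 groups alone (0.0625) and without the whole of culture 1 (0.113) or culture 2 (0.144). It was lost, too, in each of 5 fits that left out a library: culture 1 at 1 µM (adjusted p = 0.101), culture 2 at 1 µM (0.0747), DMSO culture 2 (0.0505), culture 1 at 3 µM (0.0568) and culture 3 at 3 µM (0.110).

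**Figure D3:**
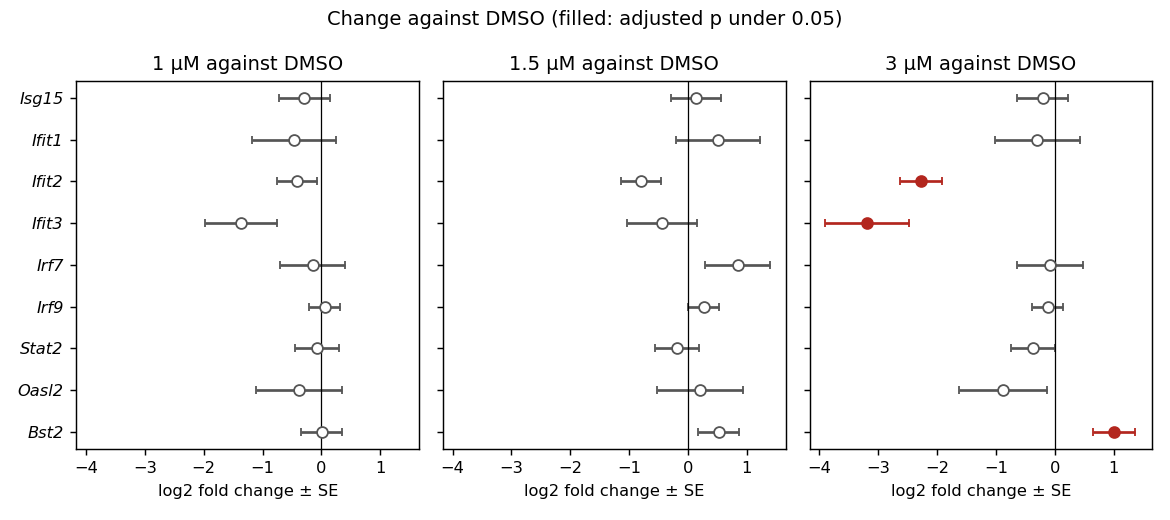
Log2 fold change ± SE of the 9 genes against DMSO at 1, 1.5 and 3 µM, from edgeR's quasi-likelihood fit to 12 libraries. Filled points have an adjusted p under 0.05, and they appear at 3 µM alone: Ifit2 at -2.27, Ifit3 at -3.19 and Bst2 at 1.01.

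Between the CHIR99021 doses, 0 of the 9 genes differed at 1.5 against 1 µM by edgeR or DESeq2, with 0 at an unadjusted p under 0.05, where 5.43% of all genes were called. At 3 against 1.5 µM, 2 of 9 were lower (Ifit2 and Ifit3), where 29.7% of all genes were called. With a term for culture 4 of 9 were lower, with Irf9 (adjusted p = 0.0344) and Oasl2 (0.0446) added, where 46.7% of all genes were called. At 3 against 1 µM, Ifit2 was lower and Bst2 higher, where 52.0% of all genes were called. In the fit of a slope over the 4 doses, 3 of 9 passed, and 58.2% of all genes did. The slopes were -0.77 ± 0.122 log2 units per µM for Ifit2 (SE, adjusted p = 0.000229), -0.92 ± 0.275 for Ifit3 (adjusted p = 0.0127) and 0.36 ± 0.109 for Bst2 (adjusted p = 0.0136). The Bst2 slope was lost without culture 3 at 3 µM (adjusted p = 0.0653), and the Ifit3 slope without culture 2 (0.0979) or culture 3 (0.129).

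The dose slopes were also fitted in each culture. The Ifit2 slope was -0.53 ± 0.179, -0.72 ± 0.193 and -0.97 ± 0.179 log2 units per µM in cultures 1, 2 and 3 (SE). It passed edgeR's test in each (adjusted p = 0.0487, 0.0169 and 0.00644), where 5559, 6720 and 4811 of 15316 genes passed. It did not pass without that culture's own library at 3 µM (adjusted p = 0.702, 0.584 and 0.224). In culture 1 it passed in 3 of the 12 fits with a library left out. The Bst2 slope was 0.52 ± 0.162, 0.26 ± 0.155 and 0.34 ± 0.153, and the Ifit3 slope was -0.16 ± 0.470, -1.42 ± 0.478 and -1.07 ± 0.424. Without the culture 1 library at 3 µM, the Ifit3 slope in culture 1 was 0.90. Without the culture 2 library at 3 µM, the Bst2 slope in culture 2 was -0.01. A difference in slope between cultures was called for 0 of the 9 genes by edgeR, the only tool run for this test, with 0 of 9 at an unadjusted p under 0.05. Of all genes tested 0% were called, and 1230 had an unadjusted p under 0.05.

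The marker sums also changed over the dose series. Macrophage and dendritic cell markers are from cells that express many interferon-stimulated genes. Their mean sum was 239, 191, 65.0 and 34.8 CPM in DMSO and at 1, 1.5 and 3 µM. In the same order the mean was 16.2, 12.2, 9.33 and 3.37 CPM for Ifit2. For Ifit3 it was 2.25, 0.867, 1.65 and 0.244 CPM, higher at 1.5 than at 1 µM, where the marker sum was lower. The part of those cells in the result was not tested. In culture 1, which had the lowest macrophage and dendritic cell sum in DMSO (58.4 CPM, against 254 and 405 in cultures 2 and 3), Ifit2 was 1.67 log2 units lower at 3 µM than in DMSO. In cultures 2 and 3 it was 2.02 and 2.77 units lower. Ifit3 did not follow that order, with log2 changes of -0.92, -4.00 and -3.08 in cultures 1, 2 and 3. The order is that of the sums in DMSO and not of their fall. At 3 µM the macrophage and dendritic cell sums were 15.4, 27.2 and 61.8 CPM in cultures 1, 2 and 3. The fibroblast sums in DMSO ranked the cultures as the macrophage and dendritic cell sums did (1548, 7165 and 20187 CPM in cultures 1, 2 and 3). The culture 1 library at 1.5 µM, where Irf7 reached 24.3 CPM, had a macrophage and dendritic cell sum of 24.1 CPM, below the 58.4 CPM of its own DMSO library. Bst2 rose while the macrophage, endothelial, lymphocyte and fibroblast sums were lower and the epithelial sum was higher. Most of that epithelial rise was in Krt5 (mean 805 CPM in DMSO, 8633 at 3 µM) and Krt14 (1091 and 15636 CPM). Trp63 also rose, while Krt8, Krt18, Krt19 and Esr1 fell. The part of any of these cells in the Bst2 change was not tested.

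Of the 9 genes, 3 differed between cultures and 6 did not pass that test. Culture 3 was the highest for 9 of 9 genes in DMSO and at 1 µM, for 5 at 1.5 µM and for 4 at 3 µM. Culture 1 was the highest for the remaining 4 at 1.5 µM and 5 at 3 µM, and culture 2 for none. The 3 genes, from a model with group and culture, were Stat2 (adjusted p = 0.00208), Irf9 (0.00553) and Oasl2 (0.0125). Of all genes tested 28.8% differed, so 3 of 9 is near the background. Stat2 was higher in culture 3 than in culture 1 by 0.77 ± 0.123 log2 units (adjusted p = 0.00226) and than in culture 2 by 0.86 ± 0.123 (adjusted p = 0.00386). Oasl2 was higher in culture 3 by 1.45 ± 0.343 than in culture 1 (adjusted p = 0.0140) and by 1.54 ± 0.342 than in culture 2 (adjusted p = 0.0187). The Oasl2 difference over the 3 cultures did not pass without culture 3 at 1 µM (adjusted p = 0.0590). Its difference from culture 1 was lost without DMSO culture 1 (0.0544), and that from culture 2 without DMSO culture 2 (0.0572), culture 2 at 1.5 µM (0.0689) or culture 3 at 1 µM (0.0682). A difference over the cultures was gained for Isg15 without culture 3 at 3 µM (0.0388) and for Bst2 without culture 1 at 1.5 µM (0.0196). Irf9 was higher in culture 3 than in culture 2 by 0.66 ± 0.105 (adjusted p = 0.00549). Fibroblast markers differed between cultures for 6 of 6 genes, and macrophage and dendritic cell markers for 8 of 10. Culture 3 had the highest sum of both lists in each of the 4 groups, and the part of those cells in the culture differences was not tested.

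The spread between cultures was wide for these genes at the level at which they were measured. With DMSO the median coefficient of variation was 0.488 over the 9 genes and 0.155 over all genes tested. The corresponding medians were 0.402 and 0.131 for 1 µM, 0.401 and 0.130 for 1.5 µM, and 0.276 and 0.185 for 3 µM. This wider spread is a description and is not adjusted for the low level of the 9 genes.

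Levels were compared between genes per kilobase of exon. In DMSO the order was Bst2 (14.3 ± 4.57 CPM per kb, SD, n = 3), Isg15 (9.25 ± 4.52), Irf9 (6.16 ± 1.48), Stat2 (4.57 ± 1.89), Ifit2 (4.13 ± 1.85), Irf7 (2.18 ± 1.48), Ifit1 (1.66 ± 1.50), Oasl2 (1.46 ± 1.31) and Ifit3 (1.29 ± 0.711). The libraries of each pair of neighbours in that order overlapped, in DMSO and at 1 µM. Bst2 stood apart from the next gene, Isg15, at 1.5 µM, with 20.5 ± 5.47 CPM per kb against 10.2 ± 4.10, as Irf9 did from Stat2. At 3 µM it was again apart, with 28.7 ± 7.06 CPM per kb against 8.05 ± 1.76 for Isg15. Ifit2, between Stat2 and Irf7 in DMSO, was then at 0.859 ± 0.142 CPM per kb, below and apart from Ifit1 at 1.36 ± 0.376. Ifit3 was last at 0.140 ± 0.0953 CPM per kb, apart from Oasl2.

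Pairwise correlations between the 9 genes were computed with and without the group means. Over the 12 libraries, which share 3 cultures, the Pearson correlation of log2 CPM had a median of 0.587 over the 36 pairs of genes. It ran from -0.44 for Ifit2 with Bst2 to 0.921 for Isg15 with Ifit1. After the group means were removed, all 36 pairs were positive, from 0.495 to 0.939, and Ifit2 with Bst2 was at 0.758. These are descriptions, and libraries of a culture share their animal and cell makeup.

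Genes outside the 9 with the most similar pattern were ranked among 12431 genes with at least 50 counts on average, by Pearson correlation over the 12 libraries. Closest to the mean profile of the 9 were Slfn8 (0.939), Rnf213 (0.901), Eif2ak2 (0.900), Dhx58 (0.864) and Zfp248 (0.864). None of these 5 was called at 3 µM, with Slfn8 at a log2 change of -0.76 (adjusted p = 0.271). Eif2ak2 encodes the kinase PKR, which is activated by double-stranded RNA, and Dhx58 encodes LGP2, a helicase of the RIG-I family. For the genes one at a time, the closest were Dhx58 for Isg15 (0.861), Ldb3 for Ifit1 (0.869), Mtss1l for Ifit2 (0.964), Irgm2 for Ifit3 (0.904) and Ifi44 for Irf7 (0.830). They were Zfp955b for Irf9 (0.940), Foxk1 for Stat2 (0.938), Slfn8 for Oasl2 (0.971) and Prickle2 for Bst2 (0.937). Like Ifit2, Mtss1l was lower at 3 µM, where it fell by 2.52 on the log2 scale (adjusted p = 5.67e-06). It was picked for its likeness to Ifit2 over these same libraries, so its fall is not a separate result.

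The other genes of the interferon pathway were read from 10 lists of 113 genes, of which 107 are in the table and 99 were tested. At 3 µM 47 of the 99 were called, which is 47.5%, with 6 higher and 41 lower. Of all genes 57.5% were called there, 29.9% higher and 27.7% lower. These shares stand beside the 3 µM count of each list below. Their median log2 fold change was -0.52. Leaving out single libraries gave 38 to 48 calls, and leaving out culture 2 gave 19. At 1.5 µM 14 were called (5 higher, 9 lower), which is 14.1% beside 27.3% of all genes. A term for culture gave 31 calls at 1.5 µM (46.7% of all genes), and there were 6 without DMSO culture 2, 7 without culture 1 at 1.5 µM, and 9 without either culture 2 or culture 3 at 1.5 µM. Without the whole of culture 1 or culture 2, 5 and 1 were called. At 1 µM 0 of the 99 were called by edgeR, with 11 at an unadjusted p under 0.05, and 1 was called by DESeq2 and 1 with a term for culture.

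Ligands were at the edge of detection. Of 11 interferon genes, 5 are in the table, and none reached more than 3 counts in a library (Ifnb1, which encodes interferon beta). Of 6 receptor genes, 1 was higher and 3 were lower at 3 µM. Ifnar1, a chain of the type I interferon receptor, went from 98.3 ± 9.73 to 62.5 ± 14.1 CPM (SD, n = 3; log2 -0.65, adjusted p = 0.00453). Ifnlr1, a chain of the interferon lambda receptor, changed by -1.21 (adjusted p = 0.00583). Ifngr2, a chain of the interferon gamma receptor, rose by 0.34 (adjusted p = 0.00873), a call lost with scaling by library size only (adjusted p = 0.278). Ifngr1, the other chain of that receptor, changed by -0.65 (adjusted p = 0.0149).

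Of 5 other interferon regulatory factors 2 were lower: Irf1, an early target of interferon gamma (log2 -0.48, adjusted p = 0.0136), and Irf8, a factor of myeloid cells (log2 -2.09, adjusted p = 0.0276). The Irf1 call was lost without DMSO culture 1 (adjusted p = 0.0524), and the Irf8 call without DMSO culture 3 (0.112), culture 1 at 3 µM (0.0872) or culture 2 at 3 µM (0.0707).

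Of 12 nucleic acid sensors and adaptors tested, 1 was higher and 4 were lower at 3 µM. Mb21d1, the gene of the DNA sensor cGAS, rose from 3.77 ± 0.582 to 14.1 ± 3.78 CPM (SD, n = 3; log2 1.90, adjusted p = 0.000249). Tlr7, an endosomal receptor of single-stranded RNA, fell from 10.5 ± 8.82 to 0.552 ± 0.259 CPM (log2 -4.22, adjusted p = 0.00429), and Ifih1, the gene of the RNA sensor MDA5, fell by 0.82 (adjusted p = 0.00924). Of 20 antiviral effectors tested, 2 were higher and 4 lower. Isg20, an exonuclease, was called higher at 1.24 (adjusted p = 0.0480), but without culture 3 at 3 µM its change was 0.40 (adjusted p = 0.329), and the call was lost in 9 of the 12 fits with a library left out. Zc3hav1, the gene of the zinc finger antiviral protein ZAP, was called higher at 0.45 (adjusted p = 0.0213), a call lost with scaling by library size only (0.181) and without DMSO culture 1 (0.0674), DMSO culture 2 (0.0745) or culture 3 at 3 µM (0.0813). Cmpk2, a mitochondrial nucleotide kinase, fell by 2.33 (adjusted p = 0.00298). Trim30a fell by 2.35 (adjusted p = 0.0180), a call lost without DMSO culture 3 (0.0617), culture 1 at 3 µM (0.0608) or culture 2 at 3 µM (0.0648).

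Of 21 other interferon-stimulated genes, 14 were lower at 3 µM and none was higher, where 27.7% of all genes were lower and 29.9% higher. Ifi27l2a fell from 18.9 ± 8.76 to 0.449 ± 0.217 CPM (SD, n = 3; log2 -5.38, adjusted p = 1.98e-05), and Lgals3bp, a secreted galectin-binding glycoprotein, fell by 2.56 (adjusted p = 0.00416). Of 5 genes that attach ISG15 to its targets or remove it, 2 were lower. Uba7, the activating enzyme for ISG15, fell from 32.9 ± 7.14 to 8.44 ± 3.47 CPM (log2 -1.96, adjusted p = 0.000507), and Herc6, the mouse ligase, fell by 1.61 (adjusted p = 0.000132), while Isg15 itself was at -0.21 (adjusted p = 0.698). Of 20 genes typical of the interferon gamma response, 11 were lower and none was higher. The GTPase gene Gbp2 fell by 2.93 (adjusted p = 2.57e-05) and the GTPase gene Iigp1 fell by 3.21 (adjusted p = 0.000439). Of 5 feedback inhibitors, 2 were higher: Ptpn2, a phosphatase of JAK and STAT proteins (log2 0.78, adjusted p = 0.000126), and Pias1, an inhibitor of STAT signalling (log2 0.47, adjusted p = 0.000272). Many genes of these lists are expressed by macrophages and endothelial cells, whose markers fell as given above, and the part of those cells was not tested. Irf1, Irf8, Mb21d1, Trim30a, Uba7, Herc6 and Gbp2 overlap other annotated genes, so some of their reads may belong to those.

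**Figure D4:**
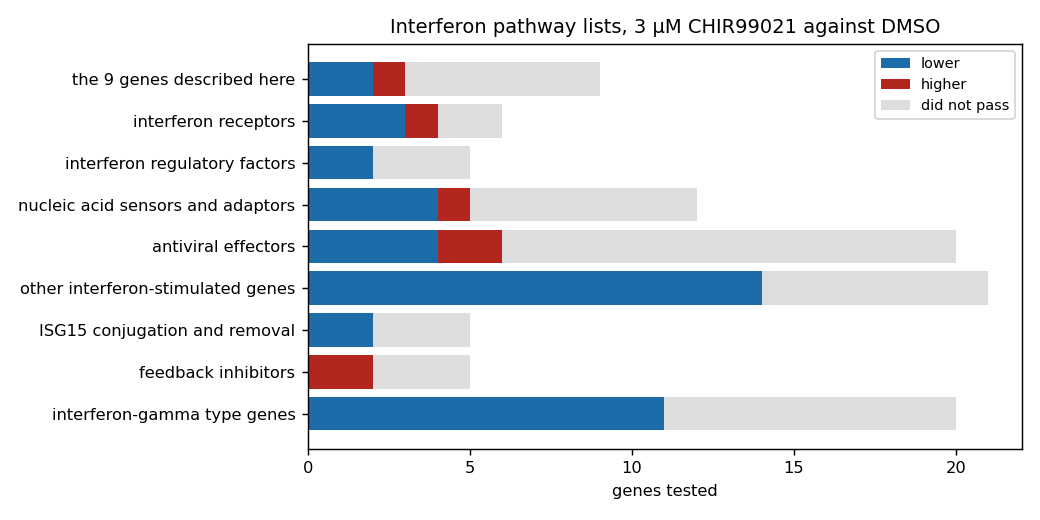
Number of genes tested in the 9 genes and 8 interferon pathway lists that were lower, higher or did not pass at 3 µM CHIR99021 against DMSO (edgeR, adjusted p under 0.05). The list of other interferon-stimulated genes has 14 lower of 21 and the interferon gamma list 11 lower of 20. The 9 genes described here have 2 lower and 1 higher. Of all genes tested, 27.7% were lower and 29.9% higher.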

How the data were processed

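Per the labels' protocols, 12 polyadenylated RNA libraries were made with a stranded TruSeq kit and sequenced on a HiSeq. Raw counts for each Ensembl gene and a second table with log2 values were deposited by the authors. The submitters' processing notes name TopHat2 2.1, Bowtie 1.1.0, HTSeq, DESeq2 and the build GRCm38 (mm10), with no role or order. The annotation release and the strand setting of the counting are not given in the sources used here. The deposited log2 values equal the logarithm of the count scaled to a total of 10 M, plus 1: 0 values differed on recomputation at a tolerance of 1e-06. All tests therefore used the counts. Of the 25210 gene IDs, 24918 are in GENCODE M21 (GRCm38), 99.996% of them on the same chromosome. The 4 rows without a gene symbol carry Ensembl IDs and were kept.

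Genes were kept with filterByExpr on 4 groups (15316 genes), scaled by TMM and tested with edgeR 4.0.16 in R 4.3.3 (glmQLFit with robust estimation, glmQLFTest) with a mean per group and all 12 libraries in the fit. The Benjamini-Hochberg adjustment ran over all genes tested, with a threshold of 0.05. Log2 CPM for correlations used a prior count of 2. The SE is the absolute log2 fold change divided by the square root of F. The scripts were tested on simulated data. Replicate pairs differed by far more than sampling noise (chi-square per degree of freedom at least 12.8). No molecular identifiers are described, so limits set by counts cover counting error only.

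The replicate number stands for a culture from its own animal, per the series' design text. After group means were removed, the 18 same-animal pairs of libraries correlated at 0.177 to 0.840 (median 0.505), and the median was -0.21 over 36 pairs from different animals and groups. The model with culture as a block was the alternative. The others were DESeq2 1.42.0, RLE factors, library size only, no filter, the 2 groups alone, and leaving out each library or culture.

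The 9 genes and all lists were chosen with earlier results of these data known. Named were the 9 genes, the genes with the most similar profile, and up to 4 called genes per pathway list with the highest and lowest log2 fold changes at 3 µM. Ifit3b was named in addition, as the near-identical copy of Ifit3, and Ifngr1 as the other chain beside Ifngr2. A planned comparison of protein sequences was not run. One gene of the JAK and STAT list is not reported here, so that list is not described by itself.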

Additional observations from a re-analysis of the deposited data

How the results depend on the processing

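Of 747 values of the 9 genes under an alternative (log2 fold changes at the 3 doses against DMSO, and slopes), 734 kept their direction or their side of the threshold, 12 lost the call and 1 gained it (the Stat2 slope with the replicate block). In 62 of these the sign differed where neither value passed. The main fit called 3 of the 9 genes at 3 µM and 3 of the 9 slopes, so most of the 747 values had no call to lose. Bst2 at 3 µM was called in 8 of the 12 fits with a library left out. The losses concern Bst2 and Ifit3 and are given with those genes, apart from Bst2 over the slope without culture 2 (0.41 per µM, adjusted p = 0.0669) and Bst2 at 3 µM without culture 1 (0.87, adjusted p = 0.0828) or culture 2 (1.11, adjusted p = 0.144). With the replicate block the count called at 3 against 1.5 µM was 4 in place of 2, and the block moved no other count of the 9 genes by over 1.5 times. With the 2 groups alone, the count at 3 against 1 µM was 1 in place of 2 (Bst2 was lost, adjusted p = 0.0625). With a library or culture left out, the number of genes called was 1 to 3 at 3 µM against DMSO and 0 to 2 at 3 against 1.5 µM. It was 0 to 3 at 3 against 1 µM and 1 to 3 for the slope. It was 0 in every such fit at 1 µM and 1.5 µM against DMSO and at 1.5 against 1 µM. The tests between cultures were refitted with single libraries left out, but not with a whole culture left out. In those fits the number was 2 to 4 for the difference between cultures and 0 for the difference in slope. Scaling by library size only moved the median log2 fold change of all genes at 3 µM from -0.03 to -0.23 and the split of calls from 4575 higher and 4239 lower to 3395 and 5404. Of the 9 genes Ifit2 and Ifit3 were then called at 3 µM. Depth limits Ifit3 most, with 1 to 5 reads per library at 3 µM.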
